A study of Oryza sativa with 7 samples.

Results

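The 31 genes described here are nuclear and encode proteins of light harvesting and of the 2 photosystems in rice (Oryza sativa, cultivar Ilmi). They were taken from a list of locus IDs given in the order of their gene names, and all 31 were found among the 37858 loci of the deposited tables. The list holds 3 copies of Lhcb1, called copy A (Os09g0346500), copy B (Os01g0600900) and copy C (Os01g0720500) here. It goes on with Lhcb2 to Lhcb6 and Lhca1 to Lhca6. Photosystem II is represented by PsbO, PsbP, PsbQ, PsbS, PsbX, PsbY and 2 copies of PsbR, copy A (Os07g0147500) and copy B (Os08g0200300). Photosystem I is represented by PsaD, PsaE, PsaF, PsaG, PsaH, PsaK, PsaL, PsaN and PsaO. As read from the locus IDs, 8 of the 31 genes lie on chromosome 7.

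RNA was sequenced from leaf at 14 days (2 libraries), from flowers before pollination in panicles of 0.5 to 1.5 cm (2 libraries, called panicle here), from seed at 20 to 30 days after pollination (2 libraries) and from root at 14 days (1 library). The names of both seed libraries give 21 days after pollination. All plants were untreated as far as the labels say. Exon bin counts per library ran from 11989260 in seed 2 to 49312943 in leaf 2. Nothing in the labels ties the 2 libraries of a tissue to different plants. The p-values therefore rest on library spread that may be purely technical. The files and the reference table used here give no names for marker loci, so the tissue labels were not checked against markers.

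Light is absorbed in the thylakoid membrane of chloroplasts by chlorophyll bound to antenna proteins. Lhcb proteins serve photosystem II and Lhca proteins serve photosystem I. Photosystem II takes electrons from water with the help of lumenal proteins such as PsbO, and photosystem I passes them on to ferredoxin. The reaction centre cores are encoded in the plastid genome, while the antenna and many peripheral subunits are encoded in the nucleus. Leaf mesophyll is rich in these complexes, and root plastids are not green.

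The 31 genes were most abundant in leaf and at a trace level in root, with young panicle and seed in between. Together they held 6.32% and 8.54% of all bin counts in the leaf libraries. In the panicle libraries they held 0.122% and 0.125%, in the seed libraries 0.371% and 0.157%, and in the root library 0.00726%. The leaf mean was the highest of the 4 tissues for all 31 genes. For 30 of them both leaf libraries also lay above every other library, PsbR copy A being the exception. The root level was the lowest tissue mean for 30 genes, and PsbS was the exception, with its lowest mean in panicle. How many of all loci show these orders was not counted. Levels are given as CPM, the count relative to a library size scaled by TMM, a method that adjusts for differences in RNA composition. A bulk library does not tell fewer green cells from less of each RNA per cell.

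**Figure D1:**
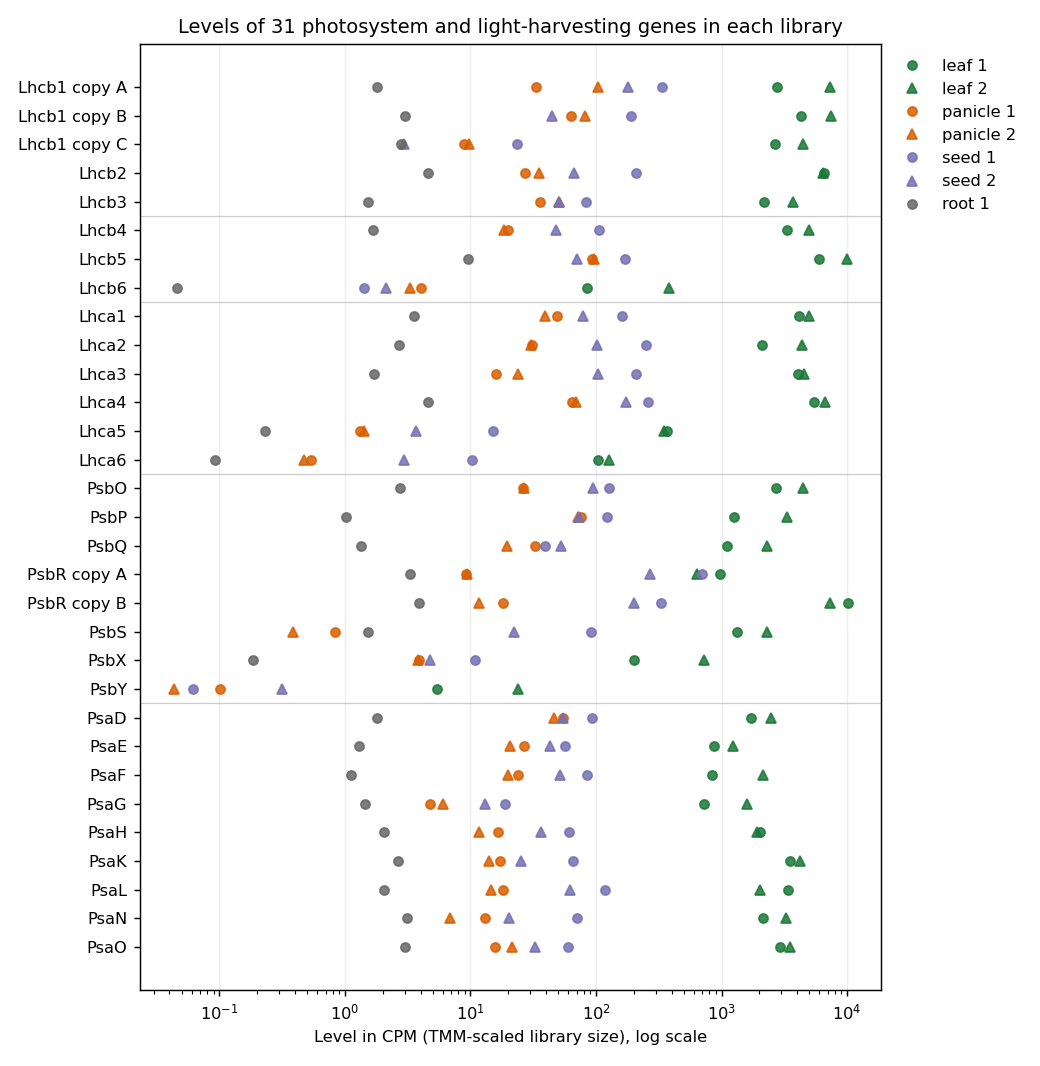
Level of each gene in each of the 7 libraries, in CPM on a log axis; circles are replicate 1, triangles replicate 2, and grey lines divide the antenna of photosystem II (major, then minor), the antenna of photosystem I, photosystem II and photosystem I. The leaf libraries lie to the right of the others except at PsbR copy A, where seed 1 (694 CPM) falls between the leaf libraries; PsbY had no root count and has no root point.

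Against panicle, all 31 genes were higher in leaf, where 21.3% of the 26784 loci tested were called higher in leaf (edgeR's quasi-likelihood test; a call needs a Benjamini-Hochberg adjusted p under 0.05 over all loci and at least a 2-fold difference). Over all loci 5696 were called higher in leaf and 2344 higher in panicle, and scaling without the 100 most abundant loci gave 5156 and 3417, with 31 of the 31 genes still called. Of the 31, only PsbY passed the filter on low counts through leaf alone, so that its difference follows in part from the filter. No gene was called higher in panicle by edgeR or by DESeq2, and none had an unadjusted p under 0.05 in that direction. The median log2 fold change of leaf over panicle was 7.10 over the 31 genes and 0.08 over all tested loci. The calls for all 31 genes were unchanged in each of the 14 alternative fits of this comparison.

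The major antenna proteins of photosystem II, Lhcb1, Lhcb2 and Lhcb3, form the trimers that hold much of leaf chlorophyll. Lhcb1 copy C had the largest leaf excess of the 5 genes, with 2672 and 4480 CPM in leaf and 8.81 and 9.70 CPM in panicle, a log2 fold change of 8.59 (SE 1.11, edgeR adjusted p = 0.00214). Lhcb3 had the smallest, with 2171 and 3724 CPM in leaf and 36.1 and 50.6 CPM in panicle, a log2 fold change of 6.09 (SE 0.54, edgeR adjusted p = 0.000603). For both genes the leaf and panicle libraries were far apart and did not overlap. Lhcb1 copy A (6.21), Lhcb1 copy B (6.35) and Lhcb2 (7.70) had log2 fold changes in between. The panicle libraries of Lhcb1 copy A differed from each other more than those of any other member, with 33.4 and 104 CPM.

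Lhcb4, Lhcb5 and Lhcb6 are the minor antenna proteins, which bind as monomers between the trimers and the photosystem II core. Lhcb4 had 3340 and 4990 CPM in leaf and 19.9 and 18.5 CPM in panicle, a log2 fold change of 7.76 (SE 0.62, edgeR adjusted p = 0.000476). Lhcb6 had the smallest difference of the 3, at 84.1 and 381 CPM in leaf and 4.06 and 3.32 CPM in panicle, a log2 fold change of 5.98 (SE 0.79, edgeR adjusted p = 0.00232). Leaf 2 was 4.54 times leaf 1 for Lhcb6, the widest ratio between leaf libraries among the 31 genes, and both still lay above every other library. All its counts fell in the first of its 2 exon bins. Lhcb5 had a log2 fold change of 6.40.

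Lhca1 to Lhca4 make up the antenna belt of photosystem I, and Lhca5 and Lhca6 are minor members that in Arabidopsis link photosystem I to the chloroplast NDH complex. Lhca5 had 368 and 350 CPM in leaf and 1.31 and 1.42 CPM in panicle, a log2 fold change of 8.03 (SE 0.77, edgeR adjusted p = 0.000761). Lhca4 had the smallest leaf excess of the 6, with 5497 and 6658 CPM in leaf and 64.5 and 68.8 CPM in panicle, a log2 fold change of 6.51 (SE 0.48, edgeR adjusted p = 0.0004). The panicle replicates of both genes lay close together, far below the leaf libraries. Lhca1 (6.71), Lhca2 (6.72), Lhca3 (7.75) and Lhca6 (7.82) lay between them on the log2 scale.

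The widest and the narrowest gap between leaf and panicle were both found in genes of photosystem II. PsbS, the protein that senses lumen acidity and triggers the dissipation of excess light energy as heat, had 1335 and 2291 CPM in leaf and 0.838 and 0.388 CPM in panicle. Its panicle level rested on 25 and 9 counts, and the log2 fold change of leaf over panicle was 11.49 (SE 1.06, edgeR adjusted p = 0.000667). With 1 library left out it ran from 10.94 to 12.02. Leaving PsbS aside, the largest excess was that of PsbR copy B, at 9.20 (SE 0.64, edgeR adjusted p = 0.000372). PsbP, a lumenal protein of the oxygen-evolving complex, stood at the other end, with 1264 and 3310 CPM in leaf and 75.4 and 72.2 CPM in panicle, a log2 fold change of 4.95 (SE 0.60, edgeR adjusted p = 0.00169). PsbO (7.10) and PsbQ (6.02), the other lumenal proteins of that complex, lay between. So did PsbR copy A (6.43) and the small membrane proteins PsbX (6.91) and PsbY (7.52). The PsbY value rests on 95 and 918 counts in leaf and 3 and 1 in panicle.

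The 9 photosystem I subunits lay between these ends. PsaN, a lumenal subunit on the plastocyanin side, had 2148 and 3273 CPM in leaf and 12.9 and 6.81 CPM in panicle, a log2 fold change of 8.10 (SE 0.86, edgeR adjusted p = 0.00104). PsaD, a stromal subunit where ferredoxin docks, had 1722 and 2458 CPM in leaf and 54.2 and 46.1 CPM in panicle, a log2 fold change of 5.38 (SE 0.46, edgeR adjusted p = 0.000557). PsaE, the neighbour of PsaD on the stromal side, had the next smallest value at 5.47, followed by PsaF, the plastocyanin-binding subunit, at 6.09. PsaH (7.13), PsaL (7.37) and PsaO (7.42), which border the site where mobile antenna trimers dock, and PsaG (7.75) and PsaK (7.95), on the flanks of the complex, were all above 7.

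**Figure D2:**
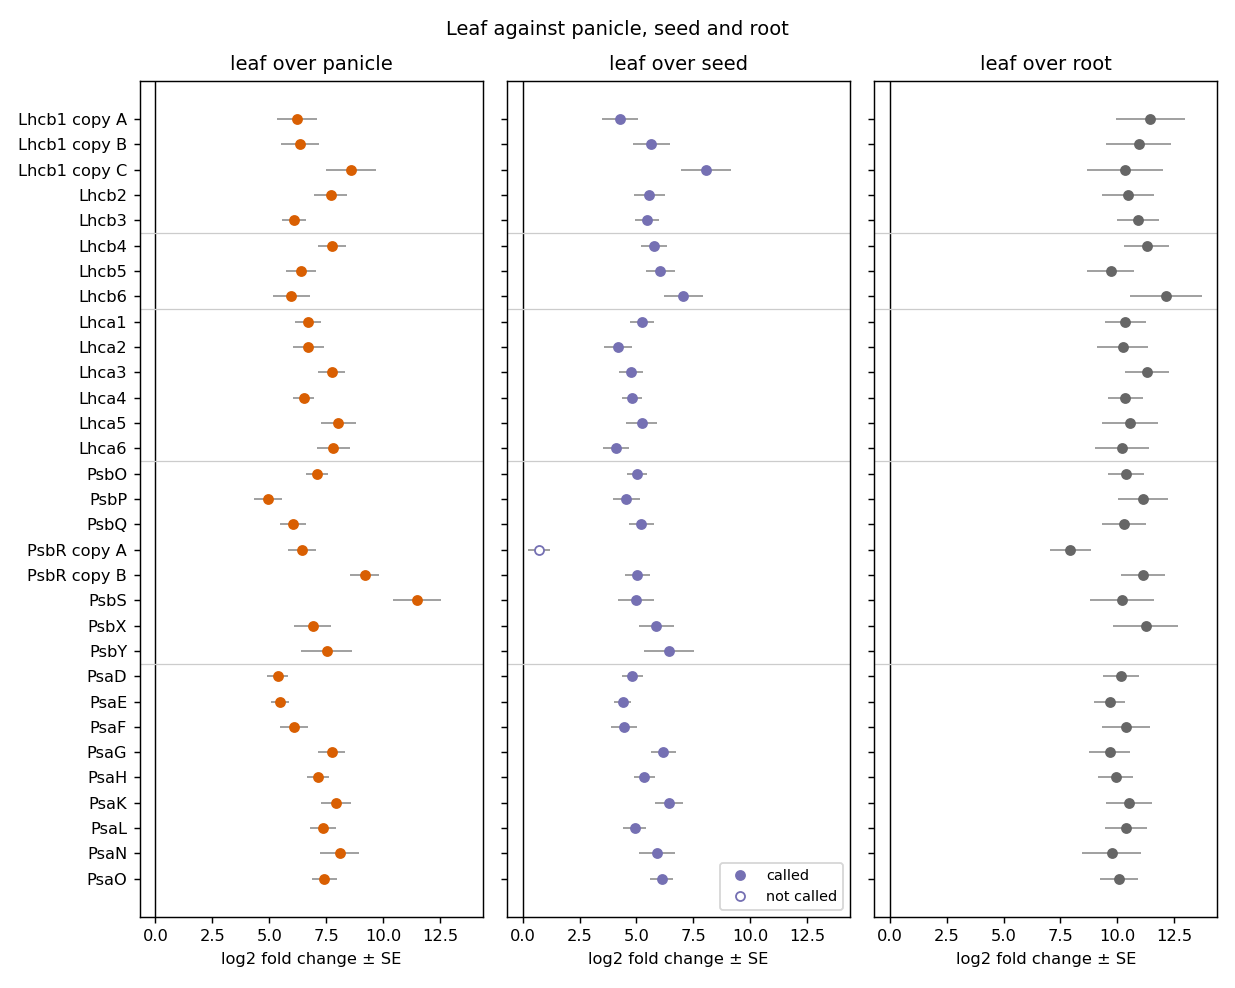
Log2 fold change of leaf over panicle, over seed and over root for each gene, with bars for the standard error; filled circles passed the test, and open circles did not. PsbR copy A in seed (0.73) is the only open circle, PsbS stands out in the panicle panel at 11.49, and PsbY is left out of the root panel because it had no root count.

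Against seed, 30 of the 31 genes were called higher in leaf, where 18.1% of all tested loci were called higher in leaf. No gene was called higher in seed by edgeR or DESeq2, and none had an unadjusted p under 0.05 in that direction. The median log2 fold change of leaf over seed was 5.23 over the 31 genes and 0.08 over all tested loci. PsbR copy A was the gene that did not pass. It had 966 and 639 CPM in leaf and 694 and 271 CPM in seed, a log2 fold change of 0.73 (SE 0.48, edgeR adjusted p = 0.29). The leaf and seed ranges overlapped, and the mean seed level was 60.2% of the mean leaf level, against 0.368% to 5.73% for the other 30 genes. Without seed 1 this gene was called, at a log2 fold change of 1.56, and without seed 2 the log2 fold change was 0.21.

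PsbR copy B, by contrast, had 10119 and 7328 CPM in leaf and 327 and 201 CPM in seed, a log2 fold change of 5.05 (SE 0.53, edgeR adjusted p = 0.00147). PsbR is a photosystem II protein that in Arabidopsis is needed for the stable binding of PsbP. Leaving aside PsbY, which passed the filter through leaf alone and had 1 and 3 counts in seed, the largest leaf excess over seed within photosystem II was that of PsbX, with 202 and 725 CPM in leaf and 10.9 and 4.75 CPM in seed (log2 fold change 5.87, SE 0.77, edgeR adjusted p = 0.00294). PsbS had 91.0 and 22.4 CPM in seed, 3.13% of its leaf level (leaf over seed passed, edgeR adjusted p = 0.00564).

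In the antenna of photosystem II the gap to seed was again largest for Lhcb1 copy C, which had 23.3 and 2.95 CPM in seed and a log2 fold change of 8.07 (SE 1.09, edgeR adjusted p = 0.00319). It was 10.24 without seed 1 and 7.26 without seed 2, and was called in both. Lhcb1 copy A had 338 and 180 CPM in seed and the smallest value of the major antenna, 4.29 (SE 0.80, edgeR adjusted p = 0.00975). Among the minor antenna Lhcb6 had the largest value, 7.07, with 1.41 and 2.11 CPM in seed, and Lhcb4 the smallest, 5.77. Lhca1, with 4161 and 5013 CPM in leaf and 162 and 79.5 CPM in seed (5.25, SE 0.52), and Lhca6 (4.10, SE 0.59) marked the ends of the photosystem I antenna. PsaK, with 3505 and 4231 CPM in leaf and 65.1 and 25.2 CPM in seed (6.42, SE 0.62), and PsaE, with 876 and 1231 CPM in leaf and 56.8 and 43.4 CPM in seed (4.39, SE 0.38), marked those of the photosystem I subunits. Lhca6 had 104 and 128 CPM in leaf and 10.3 and 2.95 CPM in seed, and its leaf and seed libraries did not overlap. Without leaf 2 the calls for Lhcb1 copy A (log2 fold change 3.42) and PsbY (4.94) were lost and 28 genes remained called. All 31 were called without seed 1.

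Root is not a green tissue, and the same genes were detected there at low counts. All 31 were called higher in leaf than in root, where 10.8% of all tested loci were called higher in leaf (edgeR). No gene was called higher in root by edgeR or DESeq2, and none had an unadjusted p under 0.05 in that direction. With 1 root library no spread could be measured within root, and the test assumes that root varies like the other tissues. The median log2 fold change of leaf over root was 10.37, and 10.36 with PsbY set to its bound, against 0.07 over all tested loci. PsbY had no root count, and its mean leaf level was at least 105-fold higher, computed against 3 counts in the root library. Its leaf libraries had 5.42 and 23.8 CPM, a spread that this bound leaves out. Its call was lost without leaf 2. Lhcb6 had 1 root count, which makes a leaf to root ratio of 5027 (95% interval from counting error, 902 to 198567). Lhca6 had 2 root counts and a leaf to root ratio of 1249 (346 to 10313). Its 2 counts lay in bins 3 and 4, and the interval takes them as separate reads, which was not checked.

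By role the extremes of leaf over root were as follows. Lhcb1 copy A had 2762 and 7363 CPM in leaf and 1.81 CPM in root (log2 fold change 11.45, SE 1.53, edgeR adjusted p = 0.00385), and Lhcb1 copy C 2.78 CPM in root (10.33, SE 1.67). In the minor antenna Lhcb5 had the smallest value, with 6021 and 9932 CPM in leaf and 9.58 CPM in root (9.70, SE 1.05). Lhca3 led the photosystem I antenna, with 4036 and 4539 CPM in leaf and 1.71 CPM in root (11.29, SE 0.97). All of these leaf libraries were far above root. In photosystem II, PsbX had 202 and 725 CPM in leaf and 0.185 CPM in root, from 4 counts (11.25, SE 1.42). PsbR copy A had the smallest value of all 31 genes (7.93, SE 0.91, edgeR adjusted p = 0.00227). Among photosystem I subunits PsaK, with 3505 and 4231 CPM in leaf and 2.64 CPM in root, had the largest value (10.51, SE 1.02), and PsaE (876 and 1231 CPM in leaf, 1.30 CPM in root) and PsaG (728 and 1608 CPM in leaf, 1.43 CPM in root) the smallest, both 9.66.

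On the log2 scale, levels relative to leaf were spread less over the genes in root than in panicle or seed. The root level was 0.0199% to 0.409% of the mean leaf level over the 30 genes with a root count, with a median of 0.0759% and quartiles of 0.0513% and 0.0858%. The highest value was that of PsbR copy A, with 3.29 CPM in root. PsaE and PsaG, the next highest, both stood at 0.123%, and Lhcb5 at 0.12% (9.58 CPM). The standard deviation of the log2 fold change over the 31 genes was 0.76 for leaf over root, 1.27 for leaf over panicle and 1.21 for leaf over seed. These comparisons share the leaf libraries. The standard deviation for root also holds the counting error of low counts and the fitted value of PsbY. Of the 2495 other loci at 100 CPM or more in leaf, 163 had a root level under 0.2% of their leaf level, and 39 of the 2495 had no root count. Among the 30 genes with a root count, 29 were under 0.2%.

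By the median over the genes, panicle and seed were closer to each other than either was to leaf. PsbR copy A and PsbS went against this, since both were further apart between panicle and seed than between leaf and seed. In 30 of the 31 genes the mean was lower in panicle than in seed, which was not counted over all loci. Of the 31, 15 were called higher in seed, where 17.1% of all tested loci were called higher in seed (edgeR). No gene was called higher in panicle, where 10.1% of all loci were, and no gene had an unadjusted p under 0.05 in that direction with edgeR or DESeq2. Both seed libraries lay above both panicle libraries for 25 of the 31 genes and for 34.9% of all tested loci. The median log2 fold change of panicle over seed was -1.65 over the genes and -0.10 over all tested loci. The seed libraries did not carry the genes to the same degree, since seed 1 was above seed 2 for 28 of the 31, by a median of 0.93 on the log2(CPM + 0.5) scale. Over all loci 50.5% were higher in seed 1.

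The 3 genes furthest apart were all of photosystem II. PsbS had 0.838 and 0.388 CPM in panicle and 91.0 and 22.4 CPM in seed, a log2 fold change of panicle over seed of -6.50 (SE 0.89, edgeR adjusted p = 0.00376). PsbR copy A had 9.18 and 9.45 CPM in panicle and 694 and 271 CPM in seed, a log2 fold change of -5.70 (SE 0.59, edgeR adjusted p = 0.00172). PsbR copy B had 18.0 and 11.7 CPM in panicle and 327 and 201 CPM in seed, a log2 fold change of -4.15 (SE 0.51, edgeR adjusted p = 0.00274). In each of them the lower seed library was more than 10 times the higher panicle library. PsbO was the only other gene of photosystem II to be called, with 26.2 and 26.6 CPM in panicle and 127 and 95.5 CPM in seed, a log2 fold change of -2.07 (SE 0.40, edgeR adjusted p = 0.0111). PsbP, at 75.4 and 72.2 CPM in panicle and 122 and 73.5 CPM in seed, was not called (log2 fold change -0.41, SE 0.51, edgeR adjusted p = 0.587), and its seed 2 value lay between the panicle libraries.

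The antenna of photosystem I was called in 5 of 6 genes. Lhca6 had the largest difference, with 0.536 and 0.474 CPM in panicle and 10.3 and 2.95 CPM in seed, a log2 fold change of -3.71 (SE 0.63, edgeR adjusted p = 0.00739). Its panicle level rests on 16 and 11 counts. Lhca3 followed at -2.98, Lhca5 at -2.81, Lhca2 at -2.53 and Lhca4 at -1.70. Lhca1, at -1.46, had an edgeR adjusted p of 0.0501. The antenna of photosystem II was called in 2 of 8 genes, Lhcb2 (log2 fold change -2.13, edgeR adjusted p = 0.035) and Lhcb4 (19.9 and 18.5 CPM in panicle, 105 and 48.1 CPM in seed, edgeR adjusted p = 0.0237). Whether the 2 antennas differ in this respect was not tested. Lhcb6 was the 1 gene with a higher mean in panicle, at 4.06 and 3.32 CPM in panicle and 1.41 and 2.11 CPM in seed (log2 fold change 1.09, SE 0.72, edgeR adjusted p = 0.297). Its libraries did not overlap, but the test was not passed.

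Of the photosystem I subunits 4 of 9 were called higher in seed, namely PsaL (log2 fold change -2.45), PsaN (-2.20), PsaH (-1.78) and PsaG (-1.56). PsaL had 18.2 and 14.6 CPM in panicle and 118 and 61.6 CPM in seed (SE 0.47, edgeR adjusted p = 0.0114). PsaD had the smallest difference of the 9, with 54.2 and 46.1 CPM in panicle and 92.3 and 55.1 CPM in seed (log2 fold change -0.56, SE 0.38, edgeR adjusted p = 0.317). The other 4 subunits had log2 fold changes from -1.65 in PsaF to -1.08 in PsaE and did not pass.

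The number of calls between panicle and seed depended on single libraries. It was 4 without panicle 1, 5 without panicle 2, 12 without seed 1 and 22 without seed 2. The loci called higher in seed over the whole table moved as well, from 4575 with all libraries to 2263, 2290, 4946 and 5123 in the same order, so the drop without a panicle library was not confined to these genes. The calls for PsbS, PsbR copy A, PsbR copy B and Lhca6 held in each alternative fit. Without seed 1 the log2 fold changes of these 4 genes were -5.14, -4.87, -3.76 and -2.53. The same omission left -1.10 for Lhcb2, -1.33 for Lhcb4, -1.44 for Lhca5 and -1.03 for PsaN. It also turned Lhcb1 copy C to 1.64 (edgeR adjusted p = 0.0463), higher in panicle. Without seed 2 the same gene was called higher in seed (-1.34), while the log2 fold change with all libraries was -0.52 (SE 0.82, edgeR adjusted p = 0.669).

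**Figure D3:**
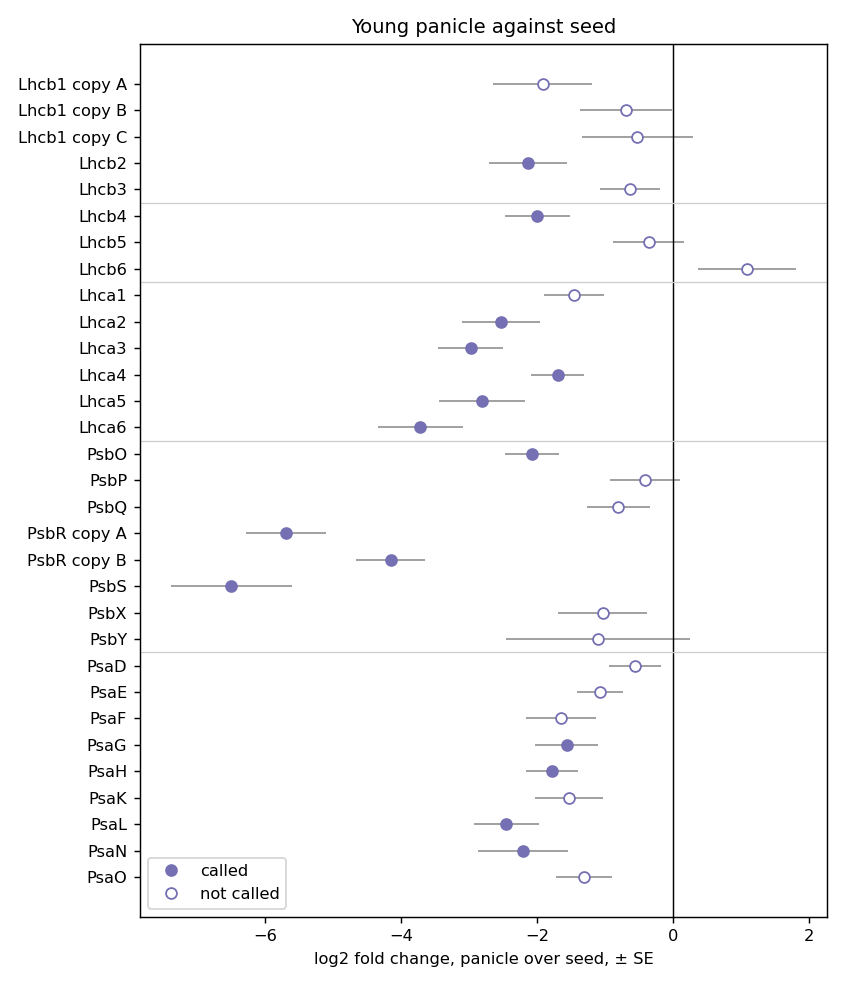
Log2 fold change of panicle over seed for each gene, with bars for the standard error; negative values are higher in seed, filled circles passed the test and open circles did not. PsbS (-6.50), PsbR copy A (-5.70) and PsbR copy B (-4.15) stand apart to the left, and Lhcb6 (1.09) is the only gene to the right of 0.

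Against root, 22 genes were called higher in panicle, where 10.2% of all tested loci were called higher in panicle, and 28 were called higher in seed, where 9.5% were called higher in seed (edgeR). The largest value of panicle over root was that of PsbP, with 75.4 and 72.2 CPM in panicle and 1.02 CPM in root (log2 fold change 6.17, SE 0.91, edgeR adjusted p = 0.00451). PsbS had a lower mean in panicle than in root, at 0.838 and 0.388 CPM in panicle and 1.53 CPM in root, and the difference did not pass (log2 fold change -1.28, SE 0.94, edgeR adjusted p = 0.331). The 33 root counts of PsbS and its 25 and 9 panicle counts are all small. The others that were not called in panicle were Lhcb1 copy C, Lhca5, Lhca6, PsbR copy A, PsbR copy B, PsaG and PsaN, with log2 fold changes from 1.50 in PsbR copy A to 2.53 in Lhca5, and PsbY, which had 3 and 1 counts in panicle and none in root. In seed the largest value was that of PsbR copy A, with 694 and 271 CPM in seed and 3.29 CPM in root (log2 fold change 7.20, SE 0.88, edgeR adjusted p = 0.004). Lhcb1 copy C, Lhcb6 and PsbY were not called in seed. Lhcb1 copy C had 23.3 and 2.95 CPM in seed and 2.78 CPM in root, so that seed 2 was close to root. Without seed 1 its log2 fold change was 0.090, and without seed 2 it was 3.07 and called. In the other roles the ends of panicle over root were 5.24 for Lhcb1 copy A and 1.74 for Lhcb1 copy C in the major antenna, 3.30 for Lhcb5 in the minor antenna, 3.85 for Lhca4 in the photosystem I antenna, and 4.79 for PsaD and 1.65 for PsaN among photosystem I subunits. Those of seed over root were 7.16 for Lhcb1 copy A and 2.26 for Lhcb1 copy C, 5.52 for Lhcb4 and 3.66 for Lhcb5, 6.52 for Lhca3 and 5.10 for Lhca1, and 5.94 for PsaF and 3.47 for PsaG. Against the single root count of Lhcb6, the ratio was 79.7 for panicle (95% interval from counting error, 14.3 to 3148) and 38.0 for seed (6.82 to 1502). The calls in panicle over root numbered 15 without panicle 2 and 16 without panicle 1, and 29 without either seed library.

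The copies of PsbR and of Lhcb1 did not keep the same proportions across tissues. The share of a copy among the counts of all its copies needs no scaling between libraries, but it depends on the lengths and bins of the copies, so that only its change between tissues is read here. PsbR copy A held 8.72% and 8.02% of PsbR counts in leaf, 33.7% and 44.7% in panicle, and 68.0% and 57.4% in seed. In root it held 45.8% (95% Wilson interval 38.2% to 53.7%, which covers counting error only). Such intervals take each bin count as a separate read, which was not checked. From the largest bin of each copy alone, the root interval was 32.0% to 63.0%. The leaf, panicle and seed libraries formed separate ranges, with leaf lowest and seed highest. The order of the tissues was not tested.

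Lhcb1 copy C held 27.4% and 23.2% of Lhcb1 counts in leaf, 8.38% and 4.97% in panicle, 4.24% and 1.30% in seed, and 36.6% in root (95% Wilson interval 29.6% to 44.2%). Panicle and seed lay below leaf in every library. Copy A held 28.3% and 38.1% in leaf, 31.8% and 53.2% in panicle, 61.5% and 79.2% in seed, and 23.8% in root (interval 17.9% to 30.8%). Its seed libraries lay above those of the other tissues, while leaf and panicle overlapped. Copy B, with 44.2% and 38.7% in leaf, 59.8% and 41.8% in panicle, 34.2% and 19.5% in seed and 39.6% in root, made up the rest. Reads of near-identical copies can be lost or split between loci by the authors' counting, and whether this differed between tissues was not tested.

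**Figure D4:**
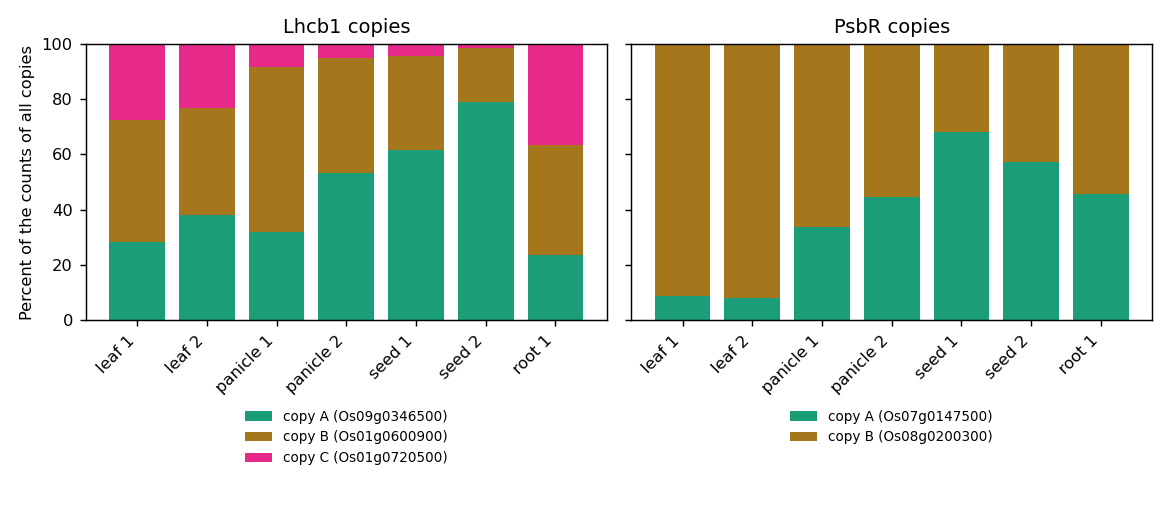
Share of each copy, in percent, among the summed counts of the 3 Lhcb1 copies and of the 2 PsbR copies, in each of the 7 libraries. Copy A of PsbR takes 8.72% and 8.02% in leaf and 68.0% and 57.4% in seed, and copy C of Lhcb1 takes its largest shares in leaf and root.

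The replicate libraries of leaf differed for these genes more than for most loci. Leaf 2 was above leaf 1 for 25 of the 31, while 42.8% of all tested loci were higher in leaf 1. The median absolute difference was 0.72 on the log2(CPM + 0.5) scale, against 0.29 over all tested loci. Apart from Lhcb6, PsbY (4.40 times) and PsbX (3.58 times) had the widest ratios of leaf 2 over leaf 1. The genes that were higher in leaf 1 included PsaL (0.595 times), PsbR copy A (0.661 times) and PsbR copy B (0.724 times). In seed the median absolute difference was 0.93 for these genes and 0.52 over all tested loci, and in panicle 0.27 and 0.25. The leaf to panicle and leaf to seed differences were larger than these spreads for all genes apart from PsbR copy A in seed.

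The study set out to look at alternative splicing, and the exon bins allow a test of whether a part of a gene is used differently between tissues. The 31 genes have 127 bins, 3 genes have a single bin, and 27 genes with 119 bins could be tested. None of the 27 was called in the 4 comparisons tested, those of leaf with each other tissue and that of panicle with seed, with edgeR's diffSpliceDGE or with voom and diffSplice. Of all loci tested, the share called was 0.227% for leaf against panicle, 0.157% for leaf against seed, 0.0756% for leaf against root and 0.113% for panicle against seed (edgeR, adjusted Simes p). At an unadjusted p under 0.05, edgeR gave 2, 5, 0 and 8 of the 119 bins in the same order, and voom gave 3, 4, 3 and 4. Between leaf and panicle the lowest was that of bin 1 of 8 of Lhca4 (edgeR, unadjusted p = 0.00165, adjusted p = 0.887). This bin held 3.40% and 1.47% of the gene's counts in leaf and 0.68% and 0.69% in panicle. The shares called among all loci were themselves low, so that the count of 0 does not set these genes apart.

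The bin shares show the spread behind this. Between leaf and panicle the largest difference among genes of 200 or more counts per library was in bin 2 of 3 of Lhcb1 copy B, which held 47.7% and 60.7% of the gene's counts in leaf and 70.5% and 63.5% in panicle (edgeR, unadjusted p = 0.804, adjusted p = 1). Between leaf and seed it was bin 3 of 3 of PsaH, with 32.3% and 36.9% in leaf and 42.0% and 48.8% in seed (edgeR, unadjusted p = 0.465, adjusted p = 1). Between panicle and seed it was bin 5 of 7 of PsaF, with 11.5% and 16.6% in panicle and 31.3% and 19.6% in seed (edgeR, unadjusted p = 0.155, adjusted p = 1). In all 3 the libraries of the tissues did not overlap, but replicates of 1 tissue differed by as much elsewhere. Bin 2 of 5 of PsaL held 46.6% of the gene's counts in leaf 1 and 27.8% in leaf 2. Against root, Lhcb5 was the only gene with enough counts, and its bin 3 of 6 held 10.6% and 10.2% in leaf and 5.80% in root (edgeR, unadjusted p = 0.296, adjusted p = 1).

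Some annotated bins held few counts in leaf. Of the 124 bins in genes of several bins, 20 in 12 genes held under 2% of their gene's counts in both leaf libraries. Several of them held more in some library elsewhere, such as bin 1 of PsaD, with 3.65% in seed 1 but 1.15% in seed 2. This bin held 1.64% and 0.73% in leaf. In Lhca2 the bins alternate, and its 6 odd-numbered bins together held 3.39% and 1.51% of counts in leaf, 1.19% and 1.85% in panicle, 1.85% and 1.97% in seed and 3.45% in root. The root value rests on 2 counts, and the 2 leaf libraries differed from each other. The summed share of the odd-numbered bins was not tested. Singly, these bins and bin 1 of PsaD were part of the exon use test, in which neither gene was called.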

How the data were processed

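Per the labels, RNA was sequenced from leaf, panicle, seed (2 libraries each) and root (1). The submitters' processing notes name TopHat2 2.0.4, Bowtie2, SAMtools 1.2, Cufflinks, HTSeq, bcl2fastq 1.8.4 and build IRGSP-1.0; what each did, and the strand setting, is not given in the sources used here. All deposited files hold raw read counts per exon bin made by the authors. Bins were summed per locus here; 5 rows that name no gene (12.2% to 15.8% of counts) were left out. Loci passing edgeR's filterByExpr (minimum count 10) were scaled by TMM and tested with edgeR 4.0.16 (R 4.3.3). This was done in 1 model of 4 tissue means with 3 residual degrees of freedom. The steps were also run on simulated counts with the same dispersion for all loci and changes planted in leaf only. That setting is simpler than these libraries. Standard errors were derived from the F statistic of each test and its log2 fold change. DESeq2 1.42.0, limma 3.58.1, other scalings and filters and leaving out libraries were alternatives. Exon use was tested with diffSpliceDGE. The text names, for each comparison and role, the genes with the largest and smallest change, and the bin with the largest change in use. Gene names come with the list, not the files; a list of other photosynthesis loci could not be used, since the files and the reference table name none. The members and lists were chosen with earlier results of these data known.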

Additional observations from a re-analysis of the deposited data

How the results depend on the processing

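Leaving out 1 library in turn gave 31 genes higher in leaf than in panicle each time, 28 to 31 higher in leaf than in seed, 30 to 31 higher in leaf than in root, 4 to 22 higher in seed than in panicle, 0 to 1 higher in panicle than in seed, 15 to 29 higher in panicle than in root and 27 to 29 higher in seed than in root. From the seed and root libraries alone, 21 of the 30 genes tested were called higher in seed. In this section, numbers of genes or loci higher in a tissue count calls. Root has 1 library and could not be left out. Between panicle and seed, 5 genes changed sign: over the fits that leave out 1 library, the log2 fold change ran from -1.39 to 0.70 for Lhcb1 copy B, -1.34 to 1.64 for Lhcb1 copy C, -0.86 to 0.41 for Lhcb5, -0.73 to 0.0053 for PsbP and -2.01 to 0.26 for PsbY. The positive values came without seed 1, and for PsbY without seed 2. The cause was not tested. DESeq2 called 21 genes higher in seed than in panicle, and 5332 of all 26784 loci. Scaling without the 100 most abundant loci called 13 genes and 4321 of all loci. That scaling moved the median of all loci from 0.08 to -0.08 for leaf over panicle and turned no gene's direction. The replicate block, for numbers that were not shown to pair the libraries (correlations of deviations 0.14, 0.22 and 0.04), gave 15 genes higher in seed than in panicle and 23 higher in panicle than in root. Over all loci the block gave 4881 and 2774 in the same order. Over all loci, leaving out 1 library gave 3076 to 6839 loci higher in leaf than in panicle (5696 with all), 1770 to 5529 higher in leaf than in seed (4850), 1329 to 4242 higher in leaf than in root (2904; 5450 from the libraries of both tissues alone), 2263 to 5123 higher in seed than in panicle (4575), 1261 to 3400 higher in panicle than in seed (2711), 1561 to 4447 higher in panicle than in root (2720) and 1444 to 3507 higher in seed than in root (2545; 989 from both tissues alone). When only the largest bin of a copy was counted, an alternative chosen after seeing the data, the mean share of Lhcb1 copy A in leaf was 42.8%, and 33.2% from all bins. Low counts limit PsbY, Lhcb6 and Lhca6 outside leaf, and PsbS in panicle and root. They also limit PsbX in root (4 counts), and Lhca5 in panicle (39 and 33 counts) and root (5 counts). Every value from root rests on 1 library.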
